A study of Homo sapiens with 2 samples.

Results

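Chemokine genes and NF-kB response genes were analyzed in HCT116, a human colon cancer cell line, after treatment with decitabine (DAC) or mock treatment. The 10 genes were taken by name from the 33538 genes in both single cell RNA sequencing tables, as 3 interferon-type genes (CXCL10, CXCL11, and CCL5) and 7 NF-kB-type genes (CXCL8, CXCL1, CXCL2, CXCL3, CCL20, IL32, and TNFAIP3), and all 10 were found in both. DAC is a cytidine analog that traps DNA methyltransferases. The DAC dose was 0.5 μM, with additions on day 1 and day 3, drug-free medium from day 5, and collection at day 7, and the content of the mock treatment was not given in the sources used here. All cells were grown in McCoy's 5A medium with fetal bovine serum and came from a single cell line. There was 1 library per condition, with 1783 mock-treated and 1751 DAC-treated cells. Therefore, cells are not replicates, no test between conditions was possible, and every interval in the text is a 95% interval that covers counting error only.

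Chemokines are small secreted proteins that attract leukocytes through G protein-coupled receptors. NF-kB is a family of dimeric transcription factors held in the cytoplasm by inhibitor proteins until a signal, such as TNF, interleukin-1, or a microbial product, leads to degradation of the inhibitor, and it is known to drive the neutrophil-attracting chemokines in intestinal epithelium. CXCL10 and CXCL11 are known as interferon-induced genes that attract activated T cells, and they and CCL5 can also respond to NF-kB, so the names of both groups refer to typical inducers and not to a measurement in these cells.

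The mock-treated library contained 49911689 unique molecular identifiers (UMIs, each marking 1 captured transcript molecule) and the DAC-treated library 59046165, with medians of 27899 and 35340 UMIs per cell. In 311 mock-treated and 319 DAC-treated cells, mitochondrial genes took over 50% of the UMIs, and 12 barcodes were present in both libraries. All 9 epithelial marker genes examined were detected in both libraries, and 3 of them, KRT18, KRT20, and LGALS4, were 2-fold or more higher in DAC-treated cells, beside 25.4% of all genes with 10 UMIs or more. With median-of-ratios scaling, which divides by the median change of the genes in place of the library totals, KRT18 was below 2-fold and 2 of 9 remained. The keratin gene KRT18 was found in 1691 mock-treated and 1728 DAC-treated cells, KRT20 in 15 and 219, and the adhesion molecule gene EPCAM, with 349 and 222 CPM, in 1528 and 1350. Among 12 leukocyte markers, 10 had 10 UMIs or more, and 9 of these 10 were 2-fold or more higher in DAC-treated cells, beside the same 25.4%, with a summed level of 7.07 CPM (UMIs of the gene per 1000000 UMIs of the library) in mock-treated and 22.2 CPM in DAC-treated cells. The T cell receptor subunit CD3D went from 1 to 292 UMIs and the myeloid adaptor TYROBP from 0 to 273, whereas the pan-leukocyte marker PTPRC had 0 and 16 UMIs and the cytotoxic granule gene NKG7 had 1 and 2. Of 9 stromal and endothelial markers, 6 had 10 UMIs or more and 4 of these were 2-fold or more higher, beside the same 25.4%, with summed levels of 11 and 21.9 CPM. Markers without a UMI in mock-treated cells, such as TYROBP, PTPRC, PECAM1, and DCN, passed the limit of 10 UMIs through DAC-treated cells alone and had to be higher there. The part of these markers in the results was not tested.

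The promoters are shown first, because the 3 closely related chemokine genes CXCL1, CXCL2, and CXCL3 gave different results in spite of similar sequence. CXCL8, CXCL1, CXCL3, and CXCL2 are on chromosome 4 of hg38, at 73740519 to 73743716, 73869393 to 73871308, 74036589 to 74038807, and 74097040 to 74099196, respectively, the former pair on the plus strand and the latter pair on the minus strand. CXCL10 (76021118 to 76023497) and CXCL11 (76033682 to 76041415) lie on the minus strand of the same chromosome, overlapped on the other strand by ART3, and CXCL11 also overlaps a ribosomal protein pseudogene on its own strand. CCL20 is on chromosome 2 (227805739 to 227817564, plus strand), IL32 on chromosome 16 (3065297 to 3082192, plus strand), TNFAIP3 on chromosome 6 (137867214 to 137883314, plus strand), and CCL5 on chromosome 17 (35871491 to 35880793, minus strand). Each chemokine gene has 4 exons in its canonical transcript, IL32 has 7, and TNFAIP3 has 9 (GENCODE 44).

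The 250 bases before the start site, from RefSeq on GRCh38.p14, are given 5′ to 3′ on the strand of the gene for 7 of the genes. The windows were chr4:73869143-73869392 (plus) for CXCL1, chr4:74099196-74099445 (minus) for CXCL2, chr4:74038690-74038939 (minus) for CXCL3, chr4:73740319-73740568 (plus) for CXCL8, chr2:227813592-227813841 (plus) for CCL20, chr16:3065153-3065402 (plus) for the more upstream of the IL32 start sites, and chr4:76023498-76023747 (minus) for CXCL10. Capitals mark every match of a loose form of the NF-kB site, GGG and CC with any 5 bases between them, or of GGAATTTCC, a strict form that the loose form can overlap, on either strand, and neighboring matches run together.
CXCL1: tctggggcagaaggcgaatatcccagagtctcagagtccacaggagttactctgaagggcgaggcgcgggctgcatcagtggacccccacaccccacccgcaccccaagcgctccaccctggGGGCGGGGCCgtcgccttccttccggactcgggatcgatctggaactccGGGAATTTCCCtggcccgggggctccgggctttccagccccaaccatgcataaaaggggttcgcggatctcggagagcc
CXCL2: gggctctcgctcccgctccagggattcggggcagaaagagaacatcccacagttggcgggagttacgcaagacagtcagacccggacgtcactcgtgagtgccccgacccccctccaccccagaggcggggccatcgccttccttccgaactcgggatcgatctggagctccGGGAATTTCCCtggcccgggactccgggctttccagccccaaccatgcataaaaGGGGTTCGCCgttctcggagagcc
CXCL3: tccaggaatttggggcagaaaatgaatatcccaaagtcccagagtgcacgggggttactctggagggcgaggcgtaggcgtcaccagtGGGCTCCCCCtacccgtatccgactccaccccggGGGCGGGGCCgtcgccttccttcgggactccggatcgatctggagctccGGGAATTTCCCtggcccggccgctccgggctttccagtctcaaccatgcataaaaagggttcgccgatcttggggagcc
CXCL8: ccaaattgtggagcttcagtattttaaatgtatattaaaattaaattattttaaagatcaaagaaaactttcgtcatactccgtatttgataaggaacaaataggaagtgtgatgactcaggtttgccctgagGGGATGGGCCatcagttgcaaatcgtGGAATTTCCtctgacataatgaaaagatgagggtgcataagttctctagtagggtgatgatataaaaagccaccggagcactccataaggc
CCL20: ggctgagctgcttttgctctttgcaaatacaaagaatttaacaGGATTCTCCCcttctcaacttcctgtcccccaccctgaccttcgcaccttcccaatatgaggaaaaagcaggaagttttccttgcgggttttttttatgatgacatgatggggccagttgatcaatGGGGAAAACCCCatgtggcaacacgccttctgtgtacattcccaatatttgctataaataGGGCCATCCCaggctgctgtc
IL32: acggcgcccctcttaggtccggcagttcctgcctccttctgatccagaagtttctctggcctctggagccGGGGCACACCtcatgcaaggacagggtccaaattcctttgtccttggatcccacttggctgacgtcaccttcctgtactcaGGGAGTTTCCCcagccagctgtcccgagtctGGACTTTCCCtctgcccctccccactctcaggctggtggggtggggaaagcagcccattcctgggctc
CXCL10: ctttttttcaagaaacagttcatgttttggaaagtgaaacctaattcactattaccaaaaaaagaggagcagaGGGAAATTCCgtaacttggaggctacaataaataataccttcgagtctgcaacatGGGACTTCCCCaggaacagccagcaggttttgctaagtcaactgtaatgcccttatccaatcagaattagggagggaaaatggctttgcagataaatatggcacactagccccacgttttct

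The strict motif GGAATTTCC was present in 6 of the 10 windows available for 9 genes, those of CXCL1, CXCL2, CXCL3, CXCL8, CXCL10, and CXCL11, and in 0.413% of the windows of 35116 promoters. It began 78 bases before the start site in CXCL1, 77 in CXCL2, 78 in CXCL3, and 91 in CXCL8, and 176 in CXCL10 and 75 in CXCL11, where it was read on the opposite strand. The loose motif was present in all 10 windows, but also in 54.4% of all promoters. A core of the interferon-stimulated response element, TTTC and TTTC with any 2 bases between them, was present in CXCL10 among the 10 windows and in 3.02% of all promoters. CXCL1 and CXCL3 shared 81.4% of the aligned bases of their windows, CXCL2 and CXCL3 shared 73.3%, and CXCL1 and CXCL2 shared 68.0%. These windows are thus not independent, and the genes were chosen as NF-kB or interferon response genes. The motif shares are therefore not a test of enrichment. CpG dinucleotides, the site of the methylation that DAC removes, numbered 18, 20, and 19 in the windows of CXCL1, CXCL2, and CXCL3 and 29 in that of TNFAIP3. There were 6 and 5 in the IL32 windows, 4 in CXCL8, 3 in CCL20, 3 in CXCL10, and 0 in CXCL11, beside a median of 11 over all promoters. A match describes the letters and is not evidence of a bound factor, and methylation of these windows was not analysed here. CCL5 was not matched in the promoter table.

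Both groups of genes were higher after DAC treatment, and the NF-kB-type genes accounted for most of the transcripts. The 7 NF-kB-type genes together had 932 UMIs (18.7 CPM) in mock-treated and 10502 UMIs (178 CPM) in DAC-treated cells, a ratio of 9.53 (8.91 to 10.2). The 3 interferon-type genes together had 3 UMIs (0.0601 CPM) and 70 UMIs (1.19 CPM), a ratio of 19.7 (6.48 to 97.9). The intervals of both ratios overlap, so that a difference in fold between the groups was not detectable at this depth, although the levels in DAC-treated cells were far apart. At least 1 UMI of an NF-kB-type gene was found in 380 mock-treated (21.3%) and 1105 DAC-treated cells (63.1%), and at least 1 UMI of an interferon-type gene in 3 (0.168%) and 42 cells (2.40%). IL32 alone made up most of the NF-kB-type UMIs, and without it the ratio was 5.08 (4.57 to 5.66), from 408 to 2453 UMIs.

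Of the 10 genes, 9 had 10 UMIs or more over both libraries, and 7 of these 9 were 2-fold or more higher in DAC-treated cells, 5 of 7 NF-kB-type and 2 of 2 interferon-type genes. No gene of the 9 was 2-fold or more lower. Among all 19130 genes with 10 UMIs or more, 25.4% were 2-fold or more higher and 8.39% were 2-fold or more lower, and under median-of-ratios scaling these shares were 21.1% and 11.9%. With 100 UMIs or more, 5 of 7 genes were 2-fold or more higher, beside 16.3% higher and 6.8% lower among all such genes. The genes that passed the limit of 10 UMIs through DAC-treated cells alone, such as CXCL11, had to be higher there.

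**Figure D1:**
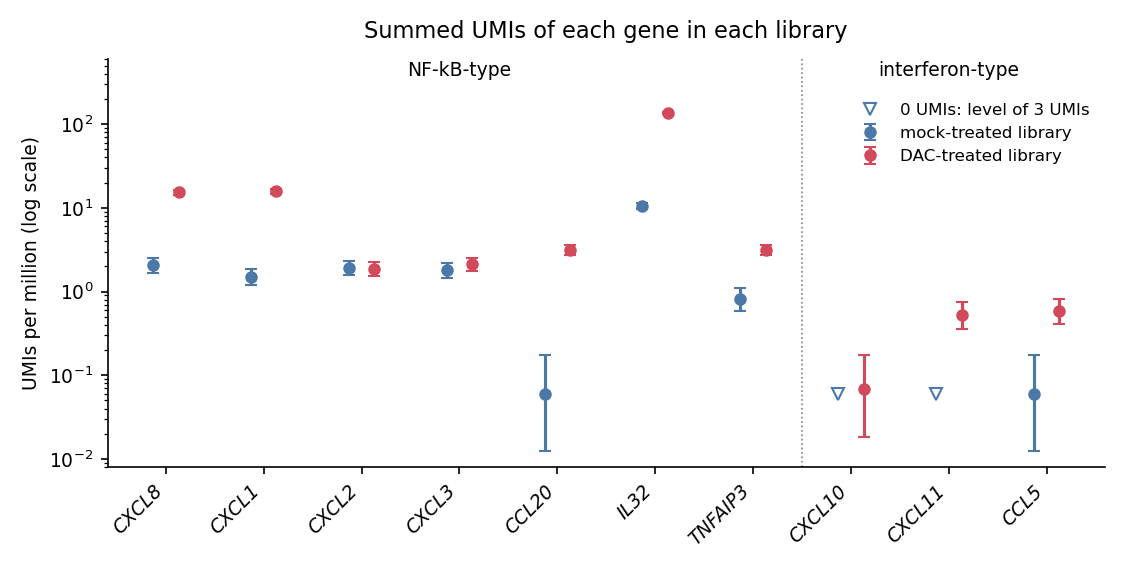
Level of each gene in the mock-treated and DAC-treated libraries, as CPM on a log axis, with 95% Poisson intervals for counting error only and 1 library per condition. IL32 stands highest at 136 CPM in DAC-treated cells, CXCL2 and CXCL3 have overlapping intervals in both libraries, and open triangles mark the level of 3 UMIs where CXCL10 and CXCL11 had none in mock-treated cells.

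Among the NF-kB-type genes, IL32 had the highest level in both libraries. IL32 encodes a secreted protein that induces TNF and chemokines in myeloid cells and is itself induced by NF-kB. It had 524 and 8049 UMIs in the mock-treated and DAC-treated libraries (10.5 and 136 CPM), a ratio of 13.0 (11.9 to 14.2). IL32 was detected in 198 mock-treated cells (11.1%, 9.68 to 12.7%) and 950 DAC-treated cells (54.3%, 51.9 to 56.6%). With 3 UMIs or more, it was found in 59 (3.31%) and 541 cells (30.9%). Since the median depth was higher in DAC-treated cells, the share was also calculated for an equal draw of 10000 UMIs per cell, where it was 7.01% and 42.1%. A small nuclear RNA pseudogene lies within IL32 on the same strand.

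CXCL1 and CXCL8, both ligands of CXCR2 that attract neutrophils (CXCL8 also through CXCR1), reached nearly the same level in DAC-treated cells. CXCL1 had 75 and 934 UMIs (1.503 and 15.8 CPM), a ratio of 10.5 (8.31 to 13.5). This ratio was 15.8 by the mean of per-cell CPM and 13.8 without the richest cell of each library, both above the interval. Without cells with more than 20% mitochondrial UMIs it was 8.12, below the interval. CXCL8 had 103 and 911 UMIs (2.06 and 15.4 CPM), a ratio of 7.48 (6.09 to 9.26). Their levels in DAC-treated cells have overlapping intervals, but CXCL1 was in more cells, 269 (15.4%) against 168 (9.59%). In mock-treated cells, CXCL1 was detected in 36 cells (2.02%) and CXCL8 in 58 cells (3.25%). At 10000 UMIs per cell, the shares from mock-treated to DAC-treated cells were 0.922% and 8.43% for CXCL1, and 1.61% and 4.95% for CXCL8.

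CXCL2 and CXCL3, the closest relatives of CXCL1 and also CXCR2 ligands, showed no difference beyond counting error in the summed UMIs. CXCL2 had 96 and 110 UMIs (1.92 and 1.86 CPM), a ratio of 0.969 (0.730 to 1.29), and by the mean of per-cell CPM, which gives each cell equal weight, the ratio was 0.652, outside this interval. CXCL3 had 90 and 126 UMIs (1.80 and 2.13 CPM), a ratio of 1.18 (0.896 to 1.57). Both intervals exclude a ratio of 2, and neither shows that the genes had equal levels. CXCL2 was detected in 63 mock-treated (3.53%) and 72 DAC-treated cells (4.11%), and CXCL3 in 58 (3.25%) and 81 cells (4.63%). The ratio of CXCL2 ranked at percentile 33.5 and that of CXCL3 at percentile 46.5 of all genes with 10 UMIs or more. Since CXCL1, CXCL2, and CXCL3 are similar in sequence, reads that match more than 1 of them may have been left out or assigned to another, and their levels are uncertain to that extent.

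CCL20, a ligand of CCR6 that attracts dendritic cells and lymphocytes to mucosa, was nearly silent in mock-treated cells. Its UMIs numbered 3, found in 2 mock-treated cells, and 186, found in 46 DAC-treated cells (0.0601 and 3.15 CPM). The ratio was 52.4, with an interval of 17.7 to 256 because of the few UMIs in mock-treated cells, and it was 139 without the richest cell of each library, which left 1 UMI in the mock-treated one. TNFAIP3, a ubiquitin-editing enzyme that dampens NF-kB signaling and is induced by it, had 41 and 186 UMIs (0.821 and 3.15 CPM), a ratio of 3.83 (2.72 to 5.52). Although CCL20 and TNFAIP3 had the same number of UMIs in DAC-treated cells, TNFAIP3 was detected in 140 cells (8.0%, with 34 cells or 1.91% in mock-treated cells) and CCL20 in 46 (2.63%). The gene WAKMAR2 overlaps TNFAIP3 on the other strand.

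The interferon-type genes were near the limit of detection. CXCL11, which attracts T cells through CXCR3, had 0 UMIs in mock-treated and 31 UMIs in 25 DAC-treated cells (1.43%). This is at least 8.73-fold higher when the mock-treated library is set at 3 counts, and the exact interval of the ratio begins at 6.69. The 0 mock-treated cells allow a share of up to 0.207% of cells with a captured UMI, which does not limit the share of cells that express the gene. CCL5, which attracts T cells and monocytes, had 3 UMIs, in 3 mock-treated cells (0.168%), against 35, in 17 DAC-treated cells (0.971%), a ratio of 9.86 (3.11 to 50.1). CXCL10, a further CXCR3 ligand, had 0 UMIs and 4 UMIs, the latter in 2 cells, and its interval begins at 0.558, so that no difference was detectable at this depth. The third CXCR3 ligand, CXCL9, had no UMI in either library.

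In DAC-treated cells, the levels were in the order IL32, CXCL1, CXCL8, CCL20 and TNFAIP3, CXCL3, CXCL2, CCL5, CXCL11, and CXCL10. One transcript gives 1 UMI whatever its length, so these UMI levels were not divided by length. The intervals of neighbors in this order overlap for CXCL1 and CXCL8, for CXCL3 and CXCL2, and for CCL5 and CXCL11. In mock-treated cells, IL32 was followed by CXCL8, CXCL2, CXCL3, and CXCL1, whose intervals overlap, and then by TNFAIP3. Free RNA in droplets can give a UMI in a cell that does not express a gene, and with a single cell line there was no cell type without these genes by which to measure it.

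The shares of cells also depended on the depth of the cell. When the cells of each library were divided into 3 equal parts by total UMIs, IL32 was detected in 22.8%, 61.1%, and 78.9% of DAC-treated cells from the lowest to the highest part. In the highest part, with medians of 44328 UMIs in mock-treated and 59101 UMIs in DAC-treated cells, the shares were 15.5% and 78.9% for IL32, 3.70% and 24.0% for CXCL1, and 4.71% and 14.9% for CXCL8. TNFAIP3 was detected in 2.69% and 13.4% of these cells, and CXCL2 in 6.06% and 5.99%. Thus, the contrast between CXCL1 and CXCL2 was also present among the cells with the most UMIs. In DAC-treated cells with more than 50% mitochondrial UMIs, the IL32 level was 44.7 CPM, beside 143 CPM in the others.

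**Figure D2:**
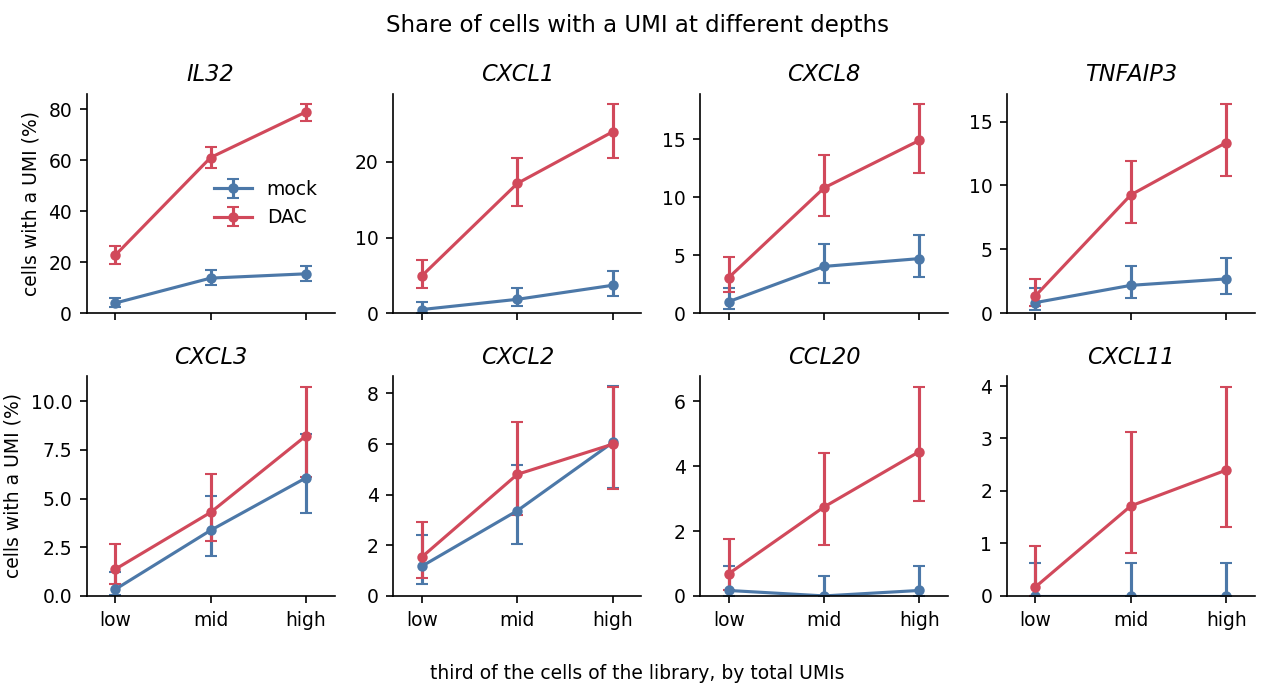
Share of cells with 1 UMI or more (percent, with 95% Clopper-Pearson intervals) in each of 3 equal parts of the cells by total UMIs, for mock-treated and DAC-treated cells. IL32 reaches 78.9% in the highest part of DAC-treated cells, whereas the CXCL2 shares of both libraries lie together at 6.06% and 5.99%.

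The transcripts were spread over the DAC-treated cells in different ways. If each UMI had fallen on the cells by their total UMIs alone, 1379 DAC-treated cells would have had IL32, and 950 (68.9% of that number) did. For CXCL8, 168 cells had a UMI beside 633.0 by even share (26.5%), and for CCL20, 46 beside 171.6 (26.8%). CXCL1 was found in 269 cells beside 643.7 (41.8%). The shares were 68.7% for CXCL2, 67.9% for CXCL3, and 81.6% for TNFAIP3, so that CXCL8 and CCL20 were in the fewest cells for their number of UMIs among the NF-kB-type genes. In DAC-treated cells, 50% of the IL32 UMIs were in the 101 cells richest in it, 50% of the CXCL1 UMIs were in 29 cells, 50% of the CXCL8 UMIs were in 7 cells, and 50% of the CCL20 UMIs were in 5 cells.

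A few cells had very high CXCL8. The highest DAC-treated cell had 153 UMIs of CXCL8, which was 16.8% of all CXCL8 UMIs of the library, and the next had 95 and 61. In contrast, 103 of the 168 CXCL8-positive cells had 1 UMI, and no mock-treated cell had more than 8. The 10 richest cells held 58.7% of the CXCL8 UMIs, 71.5% of the CCL20 UMIs, and 28.7% of the CXCL1 UMIs. For IL32, the highest cell had 177 UMIs in DAC-treated and 18 UMIs in mock-treated cells, and 235 DAC-treated cells had 10 UMIs or more. The highest cell had 7 UMIs for CXCL2 and 10 UMIs for CXCL3 in DAC-treated cells, below the 9 and 15 UMIs in mock-treated cells. The highest CXCL1 cell among mock-treated cells had 20 UMIs, 26.7% of its total.

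**Figure D3:**
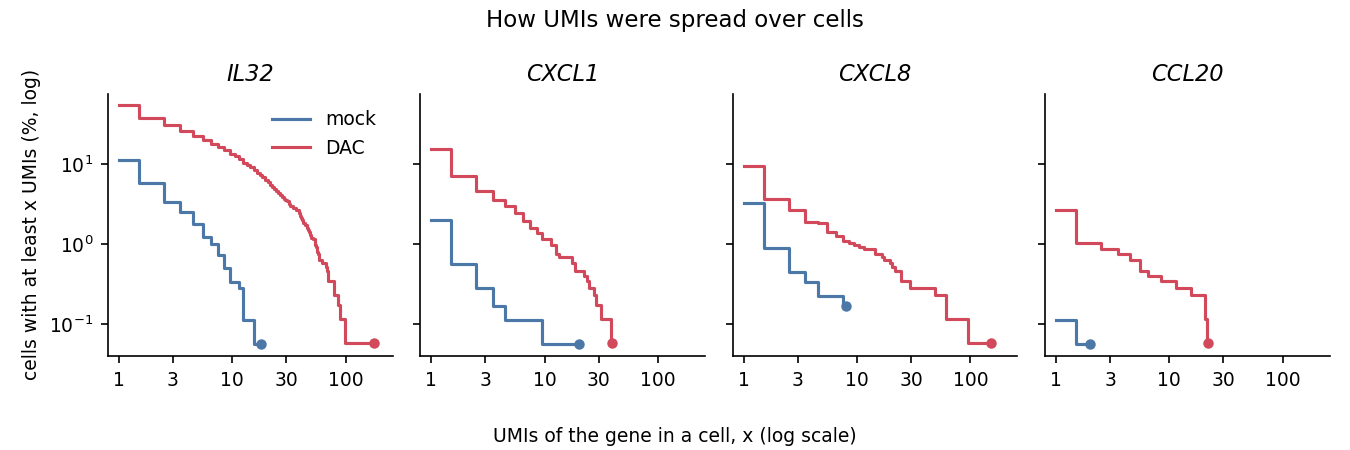
Share of cells (percent, log axis) with at least the number of UMIs on the horizontal log axis, for IL32, CXCL1, CXCL8, and CCL20 in mock-treated and DAC-treated cells, with a point at the highest cell. The DAC-treated curves end at 177 UMIs for IL32, 39 for CXCL1, 153 for CXCL8, and 22 for CCL20, and the mock-treated curves end at 18, 20, 8, and 2.

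The cell with the most CXCL8 had many UMIs of some other NF-kB target genes and interferon-stimulated genes, and few of others. Among its 27392 UMIs were 153 of CXCL8, 31 of CXCL1, 7 of CXCL2, 16 of IL32, 80 of the inhibitor gene NFKBIA, 74 of the adhesion molecule gene ICAM1, and 28 of the apoptosis inhibitor gene BIRC3. No other cell of either library had as many UMIs of NFKBIA or ICAM1. Of interferon-stimulated genes, it had 194 UMIs of ISG15, 45 of IFIT1, 29 of IFIT2, 20 of IFIT3, 16 of OASL, and 2 of MX1. It had 1 UMI each of TNFAIP3, NFKBIE, and RELB, and 0 of CCL20 and SAA1. The cell richest in CCL20 had 22 UMIs of CCL20, 95 of CXCL8, 43 of NFKBIA, and 41 of ICAM1. A different DAC-treated cell was the richest in both CXCL10 (3 UMIs) and CCL5 (8 UMIs). Among its 42121 UMIs were 211 of ISG15, 52 of IFIT1, 3 of IFIT2, 4 of IFIT3, and 41 of OASL, and none of CXCL8, CXCL1, CXCL2, or CXCL3.

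Several NF-kB-type genes were detected in a higher share of CXCL8-positive cells than of other cells. To limit the influence of depth, pairs were counted in the highest of the 3 parts of DAC-treated cells by total UMIs, although total UMIs still differ within it. CXCL1 was detected in 50.6% (39.6 to 61.5%) of the CXCL8-positive cells and in 19.3% (15.9 to 23.1%) of the others. CXCL2 was detected in 23.0% (14.6 to 33.3%) of the CXCL8-positive cells and in 3.02% (1.70 to 4.93%) of the others. Thus, CXCL2 was found with CXCL8 although its summed UMIs did not differ between the libraries beyond counting error. The corresponding shares were 18.4% and 6.44% for CXCL3, 12.6% and 3.02% for CCL20, and 27.6% and 10.9% for TNFAIP3. For IL32 they were 85.1% (75.8 to 91.8%) and 77.9% (74.0 to 81.4%), with overlapping intervals. IL32 was detected in 87.1% (80.4 to 92.2%) of the CXCL1-positive cells and in 76.4% (72.1 to 80.2%) of the cells without CXCL1. The intervals of this pair do not overlap. In the same part of the mock-treated cells, CXCL1 was detected in 7.14% (0.877 to 23.5%) of the CXCL8-positive cells and in 3.53% of the others, and with 28 CXCL8-positive cells these intervals overlap. Over all mock-treated cells, 7 had both CXCL8 and CXCL1, of 58 cells with CXCL8 and 36 with CXCL1, and 7 had both CXCL1 and CXCL2.

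**Figure D4:**
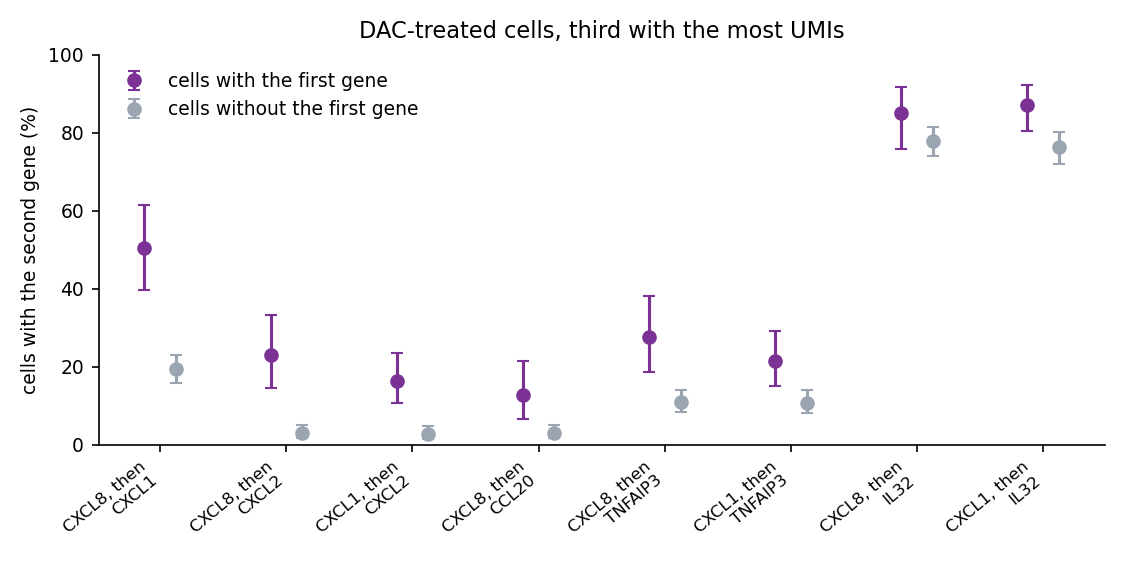
Share of cells (percent, with 95% Clopper-Pearson intervals) with a second gene among cells with and without the first gene, in the highest of the 3 parts of DAC-treated cells by total UMIs. For CXCL8 and CXCL1 the shares are 50.6% and 19.3%, and for CXCL8 and IL32 they are 85.1% and 77.9% with overlapping intervals.

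The number of NF-kB-type genes found in a cell reached 5 in mock-treated and 7 in DAC-treated cells, the latter in 1 cell. At least 3 of the 7 genes were found in 9 mock-treated and 135 DAC-treated cells. IL32 alone was in 198 and 950 cells, and without it at least 3 genes were found in 7 and 68 cells. The median depth also differed between the libraries. No cell had all 3 interferon-type genes, and 2 DAC-treated cells had 2 of them.

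Across the DAC-treated cells with 10000 UMIs or more and no more than 50% mitochondrial UMIs, the genes with the pattern most like the sum of the NF-kB-type genes were BIRC3 (Pearson r 0.413), NFKBIA (0.403), OPTN (0.343), ICAM1 (0.335), and SDC4 (0.333). These were the highest of 13279 genes over 1120 cells, and the cells share a library and differ in depth. IL32 held 76.6% of the NF-kB-type UMIs of the DAC-treated library, and no r was calculated for a sum without IL32. In the 1298 mock-treated cells chosen in the same way, the highest were BIRC3 (0.249), NFKBIA (0.191), ICAM1 (0.177), SMIM22 (0.166), and SEZ6L2 (0.135). For the sum of the interferon-type genes, which had a UMI in 37 of these DAC-treated cells, they were RARRES3 (0.408), OASL (0.385), IFIT3 (0.241), IFIT1 (0.221), and PSMB9 (0.215).

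The level of other genes was compared between positive and negative cells among the same DAC-treated cells. CXCL8-positive cells (143 cells) had a median of 0.976 NFKBIA UMIs per 10000 UMIs, beside 0.565 in the others, and 4.97 beside 3.41 for the NF-kB subunit and inhibitor genes together. Their IL32 median was 0.793 per 10000, beside 0.402. Their interferon-stimulated genes had a median of 23.8 per 10000, beside 24.7. The 37 cells with an interferon-type gene had a median of 46.6 UMIs of interferon-stimulated genes per 10000, beside 23.9 in the 1083 cells without one, at median depths of 49647 and 46992 UMIs. CXCL1-positive cells (236 cells) were higher in both, with medians of 0.972 beside 0.546 for NFKBIA and 32.3 beside 22.9 for interferon-stimulated genes.

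The genes that act upstream of these chemokines were mostly less than 2-fold apart. Of 11 NF-kB subunit and inhibitor genes, 3 were 2-fold or more higher and 0 were 2-fold or more lower, beside 25.4% higher and 8.39% lower among all genes with 10 UMIs or more, so that the share of higher genes was near that of all genes. Their median log2 ratio was 0.65, beside 0.32 for all genes. The highest were the inhibitor gene NFKBIE (ratio 2.90, 2.55 to 3.32), the subunit gene RELB (2.88, 2.67 to 3.11), and NFKBIA (2.62, 2.48 to 2.77), and the lowest were BCL3 (0.940), NFKBIZ (0.997), and REL (1.28). Of 23 signaling genes, 3 were 2-fold or more higher, namely the adaptor genes TRAF2 (3.16) and MYD88 (2.45) and the TNFAIP3 partner gene TNIP1 (2.41). In this list, 1 gene was 2-fold or more lower, RBCK1, a subunit of the linear ubiquitin ligase, which had 19659 and 6222 UMIs and was 3.74-fold lower. The receptor gene TNFRSF1A (0.610) and the kinase adaptor gene TAB1 (0.712) were the next lowest.

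Other NF-kB target genes differed in both directions. Of 25 with 10 UMIs or more, 15 were 2-fold or more higher and 3 were 2-fold or more lower, beside the same 25.4% and 8.39% of all genes, with a median log2 ratio of 1.41. With median-of-ratios scaling, 14 were higher and 4 were lower. With a limit of 100 UMIs, 10 were higher and 3 were lower. SAA1, an acute phase protein gene, had 2 and 316 UMIs (ratio 134, 36.7 to 1108), the cytokine gene TNF had 0 and 164 UMIs (at least 46.2-fold higher with the mock-treated library set at 3 counts, with an exact interval that begins at 37.2), and the kinase gene NUAK2 had 31 and 294 UMIs (8.02). The 3 lower genes were PLAU (2738 and 540 UMIs, 6.0-fold lower), LIF (3.11-fold lower), and IER3 (63579 and 25140 UMIs, 2.99-fold lower). The summed level of the list, to which IER3 contributed the most, was lower in DAC-treated cells, at 738 CPM beside 1614 CPM, in the opposite direction to its median. Of 35 interferon-stimulated genes, 32 were 2-fold or more higher (30 with median-of-ratios scaling), with a median log2 ratio of 3.00. Among them, XAF1 had 2 and 800 UMIs (ratio 338, 93.3 to 2797), IFI27 had 234 and 51804 (187), and MX1 had 14 and 1279 (77.2), while STAT2 (1.25), IRF1 (1.32), and IFIT5 (1.49) had the lowest ratios. Of 9 interferon ligand genes, 5 had no UMI in either library, and the 2 genes with 10 UMIs or more, IFNE (19 and 75 UMIs) and IFNL1 (0 and 14 UMIs), were higher. In each of these lists, some genes had 0 to 2 UMIs in mock-treated cells, such as TNF, SAA1, XAF1, and IFNL1. These could pass the limit of 10 UMIs only through DAC-treated cells and had to be higher there.

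**Figure D5:**
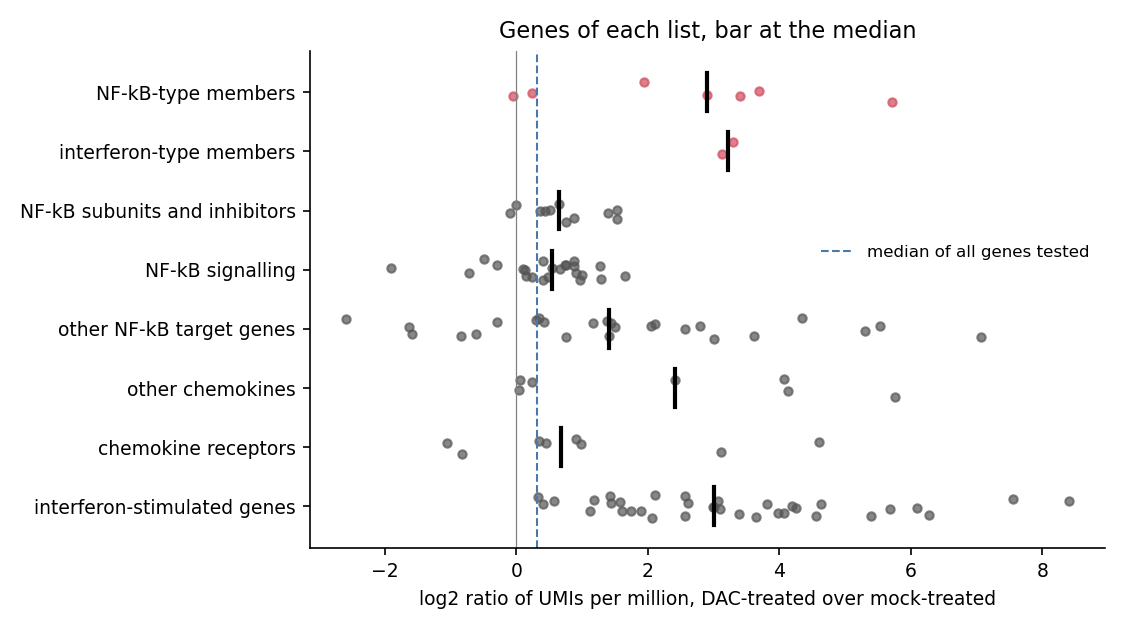
Log2 CPM ratio, DAC-treated to mock-treated, of each gene with 10 UMIs or more in the groups of chemokine, NF-kB, and interferon genes, with the median of each list and the median of all genes (0.32). The interferon-stimulated genes have a median of 3.00 and the NF-kB subunit and inhibitor genes a median of 0.65.

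Other chemokine genes and the receptors were mostly at or near 0. Of 36 other chemokine genes, 18 had no UMI in either library. Of the 7 with 10 UMIs or more, 4 were 2-fold or more higher, beside 25.4% of all such genes. All 4 had fewer than 10 UMIs in mock-treated cells. Of these, CXCL5 (0 and 19 UMIs) passed the limit through DAC-treated cells alone and had to be higher there. CCL26, an eosinophil-attracting ligand of CCR3, had 9 UMIs, in 8 mock-treated cells, against 576, in 299 DAC-treated cells, a ratio of 54.1 (28.3 to 119). CXCL16 had 1561 and 1893 UMIs, a ratio of 1.03 (0.958 to 1.10). Of 22 receptor genes, 8 had 10 UMIs or more, with 2 of them, CCR4 (0 and 86 UMIs) and CXCR4 (4 and 41 UMIs), 2-fold or more higher and 1 lower, a share of higher genes near the 25.4% of all genes. CCR4 passed the limit of 10 UMIs through DAC-treated cells alone and had to be higher there. With median-of-ratios scaling, 2 receptor genes were higher and 2 were lower. The receptor gene with the most UMIs, CCR10, had 47 and 104, a ratio of 1.87 (1.31 to 2.70). Receptors of the chemokines described here had few UMIs, with 0 and 2 for CXCR1, 3 and 7 for CXCR2, 0 and 1 for CXCR3, and 9 and 6 for CCR6 in mock-treated and DAC-treated cells, respectively.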

How the data were processed

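Libraries of mock-treated and DAC-treated HCT116 cells were prepared with the Chromium Single Cell 3' kit v3, 1 per condition. Per the labels and the study's methods, the authors mapped reads to hg38 using Cell Ranger (annotation not given in the sources used here) and deposited whole UMI counts for each gene in each cell, not normalized. More barcodes were deposited than the live cells that the methods state, and every barcode was kept. No doublet caller was run, as cells of 1 line carry no distinguishing marker. Genes were matched by name. Of the names, 24 were repeated, among them SOD2, which was left out of its list. The result of 1 receptor gene is not reported here.

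The members and lists were chosen with earlier results of these data known. Genes named beside the members were the 3 with the highest and 3 with the lowest ratio in a list, given at least 100 UMIs in either library, and the 5 with the highest Pearson r (log2 of UMIs per 10000 plus 1, genes in 5% of cells or more). Markers and receptors named with few UMIs, other genes of the richest cells, KRT18, KRT20, LGALS4, EPCAM, CCR4, CXCR4, CXCL5, CXCL9, IFNE, and IFNL1 were chosen after their values were seen.

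UMIs were summed over cells and scaled to the library total (CPM). Ratios have exact conditional binomial intervals, sums exact Poisson intervals, and shares exact Clopper-Pearson intervals, at the 95% level. A count of 0 was set at 3 counts over the library for limits. Shares at equal depth used the hypergeometric formula over cells with 10000 UMIs or more. Genes entered the lists with 10 UMIs or more over both libraries. Promoter windows were aligned in pairs with Biopython 1.88. Computations used Python 3.11.15, numpy 2.4.6, scipy 1.17.1, and pandas 2.3.3, with matplotlib 3.10.9 for plots, and were tested on simulated data. Alternatives were median-of-ratios scaling, the mean of per-cell CPM, other sets of cells, equal depth, and other UMI limits.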

Additional observations from a re-analysis of the deposited data

How the results depend on the processing

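Of 76 alternative values for the genes and their sums, 70 stayed within the counting interval of the ratio as reported, 6 moved outside it, and 0 reversed beyond counting error. The shares of cells with a UMI were not among these values, and most of them moved with depth and UMI limit. For IL32 in DAC-treated cells, the share was 54.3%, with 42.1% at 10000 UMIs per cell and 30.9% with 3 UMIs or more. Median-of-ratios scaling, which lowers every log2 ratio by 0.24, moved the sum of the NF-kB-type genes from 3.25 to 3.01 on the log2 scale. With 100 UMIs or more in place of 10, the genes 2-fold or more higher numbered 2209 in place of 4855, and those lower 921 in place of 1605, because fewer genes entered. The same limit left 2 leukocyte markers in place of 9, 0 stromal and endothelial markers in place of 4, 1 other chemokine in place of 4, 0 receptors in place of 2, and 0 interferon ligands in place of 2 among the genes 2-fold or more higher. The ratio of CXCL1 was 15.8 by the mean of per-cell CPM, 13.8 without its richest cell in each library, and 8.12 without cells with more than 20% mitochondrial UMIs. The cause was not tested. CXCL2 ranged from 0.652, by the mean of per-cell CPM and outside its interval, to 1.10, and CXCL3 from 0.977 to 1.51, on both sides of 1. CCL20 ranged from 44.4, with median-of-ratios scaling, to 144, in cells with 10000 UMIs or more and no more than 50% mitochondrial UMIs, where mock-treated cells had 1 UMI. IL32 ranged from 11 to 13.2, the NF-kB-type sum from 8.07 to 9.90, and the interferon-type sum from 15.5 to 24.9. No alternative was computed for the ratio of CXCL10, which had 4 UMIs. No paired analysis was possible because there was 1 library per condition, and no replicate could be left out. The effect of DAC cannot be told apart from a difference between the 2 libraries, and the few UMIs in mock-treated cells limit the ratios of CXCL10, CXCL11, CCL5, and CCL20.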
